A study of Glycine max with 30 samples.

Results

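The regions described here carried histone H3 trimethylated at lysine 4 (H3K4me3) in soybean embryos at the cotyledon stage, at early maturation or at both, and were absent from the mid-maturation, late maturation and seedling lists. They were found by merging the peaks of the 5 H3K4me3 lists that shared at least 1 bp into union regions, keeping those of 200 bp or more, and reading off in which lists each region had a peak. The rule kept 1906 of 56109 union regions (3.4%). Of these, 658 had a peak at the cotyledon stage only, 650 at early maturation only and 598 at both stages. The regions were thus chosen by the presence of H3K4me3 peaks in these lists, so the counts, widths and scores of H3K4me3 below are a description and were not tested.

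The data are from chromatin immunoprecipitation followed by sequencing (ChIP-seq) on whole embryos and seedlings of Glycine max cultivar Williams 82, grown in a greenhouse, and the labels name no transgene or treatment for any group. Seeds were 2.5 to 3.5 mm long at the cotyledon stage and 6 to 7 mm at early maturation. They weighed 200 to 250 mg at mid-maturation and, when yellow at late maturation, 230 to 500 mg. Seedlings were taken at 8 days. Values for all 5 stages are given below in this developmental order. Each stage had 2 biological replicates for each of H3K4me3, H3K27me3 and the total H3 control, which makes 30 libraries. The authors deposited 1 list per stage and mark for both replicates, so no value below has a replicate error, no stage difference could be tested, and library depth is unknown. Late maturation embryos were ground frozen, crosslinked on ice and their nuclei taken from a gradient, unlike the other tissues, so that stage and protocol cannot be told apart there. The label of early embryos was not checked against marker genes, since regions were not assigned to genes here.

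In plants, H3K4me3 is written by Trithorax-type methyltransferases and lies just after the start of transcribed genes. H3K27me3 is written by Polycomb repressive complex 2 and covers genes that are held silent, among them many regulators of development. At the cotyledon stage the soybean embryo is completing its organs and its cells still divide. During early maturation the cells of the cotyledons begin to enlarge and to fill with storage protein and oil. Both marks were measured on whole tissues, in which fewer cells with a mark and less of the mark per cell cannot be told apart.

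The early-only regions were short. The median width was 304 bp for the cotyledon-only regions (quartiles 236 and 444 bp), 302 bp for the early-maturation-only regions (242 and 421 bp) and 472 bp for those of both stages (337 and 726 bp). The median over all union regions was 1081 bp, and over the 33502 regions present at all 5 stages it was 1275 bp. Short widths were shared by mid-maturation-only regions, with a median of 306 bp, and by seedling-only regions, with 393 bp. A width of 1000 bp or more was reached by 105 early-only regions, of which 71 belonged to both stages, 21 to the cotyledon stage only and 13 to early maturation only. Together the 1906 regions covered 856 kb. At the width limit the last regions inside were 200 bp wide, on chromosome 2 from 9350350 (score 5.91 at the cotyledon stage) and on chromosome 3 from 41283477 (4.16 at early maturation). The first outside were 199 bp wide, on chromosome 2 from 10999441 (4.16 at early maturation) and from 14738025 (7.86 at the cotyledon stage).

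Most early-only regions had a low authors' score, a value per peak whose meaning is not stated and which is used here to rank peaks within a list. The median score of the cotyledon-only regions was 7.44 in a list whose median was 89.9 and whose lowest score was 2.04. The early-maturation-only regions had a median of 6.89 in a list with a median of 137 and a lowest score of 2.03. Regions of both stages stood somewhat higher, with a median of 9.66 at the cotyledon stage and 9.35 at early maturation. As ranks, the median region lay at percentile 12.0 of its list for cotyledon only and at percentile 7.07 for early maturation only, and for both stages at percentile 16.0 of the cotyledon list and 11.0 of the early maturation list. In the lowest 25% of the list by score lay 602 of 658 cotyledon-only regions and 632 of 650 early-maturation-only regions. Above the median of the list lay 0 cotyledon-only regions, 1 early-maturation-only region and, by their cotyledon score, 6 regions of both stages. Low scores were shared by the regions found at 1 other stage only, whose median rank was percentile 7.99 at mid-maturation and 20.1 in seedlings. Absence from a list is not absence of signal, and the reads beneath absent calls were not analysed here.

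**Figure D1:**
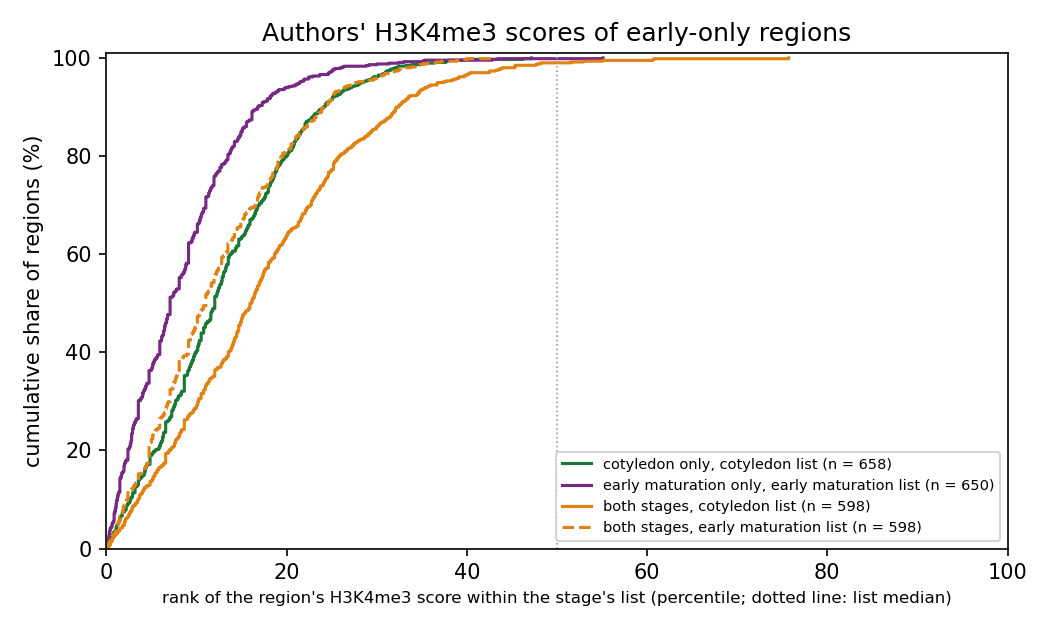
Cumulative share of early-only regions (vertical axis, %) against the rank of their H3K4me3 score within the list of the stage (horizontal axis, percentile), for regions of the cotyledon stage only, early maturation only and both stages. All curves rise steeply at the left, with median ranks between percentiles 7.07 and 16.0, and few regions pass the list median marked by the dotted line.

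The 598 regions of both stages overlapped only in part between the stages. In 554 of them each list had 1 peak, and in 44 at least 1 list had more. The bases covered in both lists made up a median of 64.6% of the region (quartiles 46.8 and 77.5%). The cotyledon peak was the wider in 298 regions and the early maturation peak in 299, with median covered widths of 365 and 377 bp. By rank within the list, 404 regions stood higher at the cotyledon stage and 194 at early maturation. The scores of both stages had a Spearman correlation of 0.42 over the 598 regions, a description of regions that share their libraries and were chosen for having a score in both.

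Among the strongest cotyledon-only regions, the one with the highest score lay on chromosome 18 from 45351792 to 45353639. It was 1848 bp wide and scored 82.4, at percentile 47.2 of the cotyledon list. The widest of the class, 3371 bp on chromosome 2 from 1051704 to 1055074, had a score of 79.5. Neither had an H3K27me3 island at any stage. A region of 843 bp on chromosome 12 from 15564313 scored 59.0 and had an H3K27me3 island in seedlings alone, with 223 ChIP and 151 control reads and a fold of 2.53 over the H3 control. A region of 2064 bp on chromosome 10 from 1098966 scored 52.2 without an island. The last of the 5 with the highest scores, on chromosome 20 from 597767 to 599499, scored 51.4 and lay within H3K27me3 islands at all 5 stages, with folds of 4.81, 3.30, 3.34, 2.57 and 2.22 over the 5 stages.

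The highest score of any early-maturation-only region was 156, on chromosome 2 from 49526755 to 49528549. This region was also the widest of its class at 1795 bp, and the only one above the median of its list, at percentile 55.1. Regions on chromosome 7 from 17681961 to 17682586 and from 19179791 to 19180591 followed with scores of 107 and 104. Both were under 1000 bp, with widths of 626 and 801 bp, and had no H3K27me3 island at any stage. A region of 732 bp on chromosome 15 from 38696018 scored 67.1 and was isolated, with 315168 bp to the nearest peak of a later list. The fifth, on chromosome 17 from 9693759 to 9695038, scored 66.5 and lay over H3K27me3 islands at every stage but early maturation, the stage at which its H3K4me3 peak was called, with folds of 2.99, 1.81, 1.70 and 2.57.

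The regions of both stages were ranked by the lower of their 2 scores. First was a region on chromosome 5 from 33226211 to 33228143 that scored 76.7 and 70.5 and had weak islands of fold 2.20 at the cotyledon stage and 1.31 at late maturation. It was followed by regions on chromosome 11 from 38999014 (76.7 and 66.3), on chromosome 19 from 49264410 (68.2 and 62.7), on chromosome 1 from 46062636 (72.3 and 60.6) and on chromosome 17 from 4027603 (59.5 and 51.0). In all 5 the cotyledon score was the higher, although the early maturation list had the higher median. The 3 widest regions of this class were less even. A region of 3029 bp on chromosome 7 from 4695221 scored 93.9 at the cotyledon stage and 41.9 at early maturation. One of 2834 bp on chromosome 10 from 36554724 scored 71.6 and then 8.72. One of 2402 bp on chromosome 4 from 12049723 to 12052124 scored 138 at the cotyledon stage, at percentile 75.7 of that list, and 18.5 at early maturation, at percentile 19.4. Scores of different lists are not on a stated common scale. None of these 3 wide regions had an H3K27me3 island at any stage.

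Some early-only regions lay close to peaks of later lists, whether or not those peaks were also called earlier. The median gap to the nearest peak of a later list was 964 bp for cotyledon-only regions, 1687 bp for early-maturation-only regions and 1726 bp for regions of both stages. A gap of at most 1000 bp was found for 338 of 658 cotyledon-only regions (51.4%, 95% Wilson interval 47.6 to 55.2), 240 of 642 early-maturation-only regions (37.4%, 33.7 to 41.2) and 209 of 591 regions of both stages (35.4%, 31.6 to 39.3), leaving out the 15 regions on scaffolds without a later peak. The intervals cover counting error only, and neighbouring regions are not independent. Mid-maturation-only regions, measured to the 4 lists that lack them, had a median gap of 2683 bp with 26.4% (24.4 to 28.4) within 1000 bp, and seedling-only regions 2496 bp with 32.4% (31.0 to 34.0). The shares of early-maturation-only regions and of regions of both stages were near that of the seedling-only regions. Early-only regions were measured to the 3 later lists and the other classes to 4 lists, so these are unlike measures. No difference between classes was tested. When measured for each class to the regions present at all 5 stages, the median gap was 3069 bp for cotyledon only, 3904 bp for early maturation only, 3543 bp for both stages, 6649 bp for mid-maturation only and 5700 bp for seedlings only. Of the cotyledon-only regions, 323 (49.1%) also had an early maturation peak within 1000 bp, and 183 of 648 early-maturation-only regions (28.2%) had a cotyledon peak as near. More than 20000 bp separated 51 early-only regions from any later peak.

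**Figure D2:**
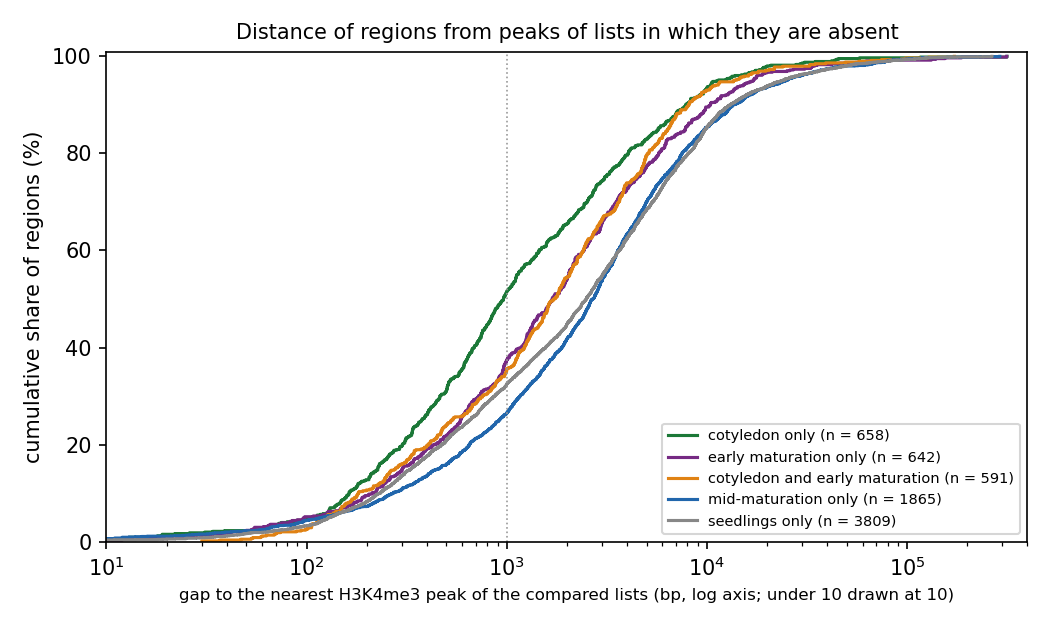
Cumulative share of regions (vertical axis, %) against the gap in bp to the nearest H3K4me3 peak of the lists in which the class is absent (horizontal axis, log scale), for the 3 early-only classes and for regions of mid-maturation only and of seedlings only. The cotyledon-only curve lies to the left of the others, and at the dotted line of 1000 bp it stands at 51.4%.

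Chained with gaps of at most 20000 bp, 535 of the 1906 regions (28.1%) fell into 242 groups of at least 2, and 1371 stood alone. The same chaining put 23.9% of the 1866 mid-maturation-only regions and 44.0% of the 3815 seedling-only regions into groups. The early-only share lay between these. Chaining does not correct for the number of regions in a class, and no difference was tested. The nearest union region of any kind was another early-only region for 286 of the 1906 (15.0%). An early-only region was nearest for 4.06% of the regions of all 5 stages, 2.52% of the mid-maturation-only and 1.99% of the seedling-only regions. The first share counts neighbours of the same class and the others do not, so they are unlike measures, and no difference was tested. Same-class neighbours were not counted in this way for the other classes. The nearest union region was one of all 5 stages for 981 early-only regions (51.5%), against 60.5%, 42.5% and 41.0% in the same classes. Regions of all 5 stages made up 59.7% of the union. The largest group had 5 members on chromosome 17 between 9693759 and 9724788, with 1 region of all 5 stages among them, and it began with the early-maturation-only region of score 66.5 given above. On chromosome 10, 4 early-only regions lay within 3822 bp from 4695974 to 4699795, with no other union region between them and 14837 bp or more to the nearest later peak. Of these, 3 were regions of both stages with scores of 8.84, 18.5 and 20.4 at the cotyledon stage and 16.5, 18.3 and 11.6 at early maturation. A similar group of 4 within 3342 bp lay on chromosome 16 from 36161198 to 36164539, again with 3 regions of both stages and no other union region, with scores between 5.44 and 11.3. Neither group had an H3K27me3 island at any stage.

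Along the chromosomes the early-only regions were spread much like all union regions. The share between 25 and 75% of the listed span of a chromosome was 21.3% (403 of 1889, Wilson interval 19.5 to 23.2) against 21.6% of all union regions. By class it was 18.8% for cotyledon only, 23.0% for early maturation only and 22.3% for both stages, with intervals of 16.0 to 22.0, 19.9 to 26.4 and 19.2 to 25.9. Each of the 20 chromosomes held early-only regions, between 58 on chromosome 16 and 144 on chromosome 13. They made up between 2.71% of the union regions on chromosome 1 and 4.12% on chromosome 18.

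**Figure D3:**
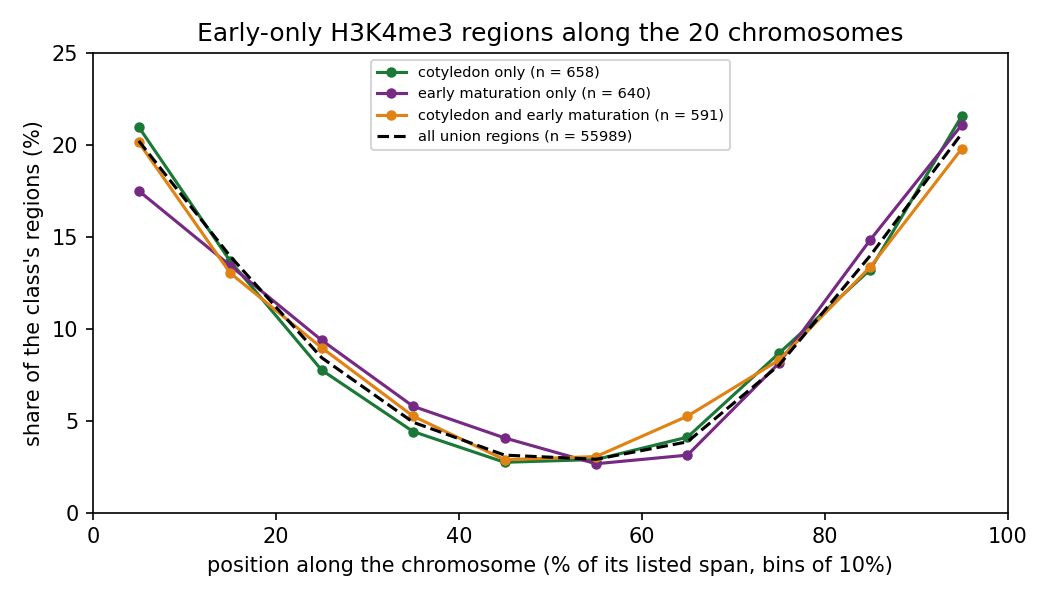
Share of each early-only class (vertical axis, %) in bins of 10% of the listed span of a chromosome (horizontal axis), pooled over the 20 chromosomes, with all union regions as the dashed line. The classes run close to the dashed line, high at both ends and low in the middle.

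H3K27me3 was not used to choose the regions. At the cotyledon stage 466 of the 1906 early-only regions overlapped an H3K27me3 island by at least 1 bp (24.4%, Wilson interval 22.6 to 26.4), against 26.5% of all union regions. At early maturation 345 regions did so (18.1%, 16.4 to 19.9) against 20.6%. The share for mid-maturation was 17.6% (336 regions, 16.0 to 19.4) against 19.1%, and for late maturation 22.7% (432 regions, 20.8 to 24.6) against 23.4%. In seedlings 433 regions overlapped one (22.7%, 20.9 to 24.7) against 23%. The shares of early-only regions were thus near the background at each stage. At the cotyledon stage and early maturation the background lay slightly above the interval, a difference that was not tested. An island over the midpoint of the region was also counted, a measure added after seeing the data. By midpoint the cotyledon share was 23.5% (21.7 to 25.5) against 24.5%, with the background inside the interval. At early maturation it was 17.4% (15.7 to 19.1) against 19.2%. Like those of all union regions, the early-only shares were highest at the cotyledon stage. They were higher at late maturation and in seedlings than at early and mid-maturation. The island lists covered 115, 89.9, 84.0, 99.6 and 83.1 Mb over the 5 stages, and the part of this coverage in the shares was not tested.

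The 3 early-only classes gave similar shares. At the cotyledon stage it was 24.6% for cotyledon only, 24.9% for early maturation only and 23.7% for both stages. At early maturation it was 18.4%, 20% and 15.7%, with Wilson intervals that overlapped. Mid-maturation-only and seedling-only regions gave higher shares at each stage. Mid-maturation-only regions, with a median width of 306 bp close to that of the early-only classes, overlapped an island in 58.2% at the cotyledon stage and in 51.2% at mid-maturation. Seedling-only regions did so in 39.7% at the cotyledon stage and 33.1% in seedlings. Regions of all embryo stages but not seedlings had shares of 29.2, 20.3, 14.3, 22.3 and 29.8% over the stages, below those of the early-only regions for mid- and late maturation and above them otherwise. Regions of all 5 stages had the lowest shares, 17.3% at the cotyledon stage. With 1 list per stage, no test of these differences between classes was made.

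**Figure D4:**
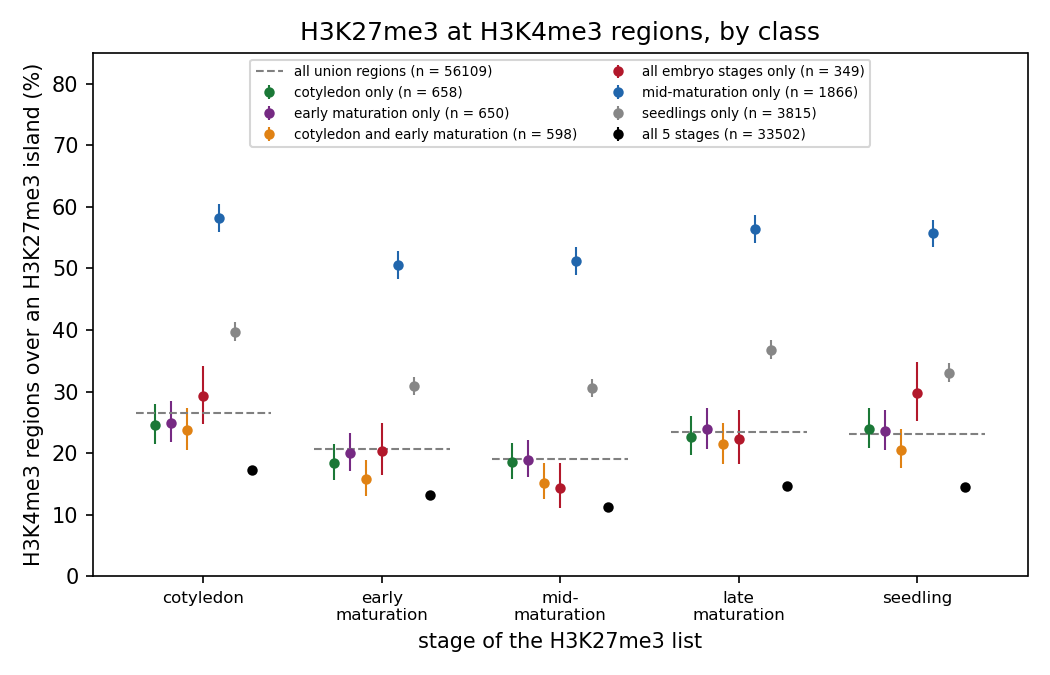
Share of H3K4me3 regions that overlap an H3K27me3 island (vertical axis, %) in the list of each stage (horizontal axis), for the 3 early-only classes and 4 other classes, with 95% Wilson intervals as bars and all union regions as dashed lines. The early-only classes lie between 15.2 and 24.9%, near the dashed lines, and the mid-maturation-only regions between 50.6 and 58.2%.

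Followed over the stages, 1304 early-only regions (68.4%) had no H3K27me3 island at any stage, against 68.3% of all union regions, and 253 (13.3%) had one at all 5 stages, against 15.8%. Islands at mid-maturation, late maturation or in seedlings but not at the first 2 stages were found for 107 (5.61%, Wilson interval 4.67 to 6.74), against 4.28% of all union regions. The reverse, islands at the cotyledon stage or early maturation and none later, was found for 63 (3.31%, 2.59 to 4.21), against 3.62%. The share with islands at the first 2 stages and none later was near the background. The interval of the later-only share lay above its background of 4.28%, a difference that was not tested. Other classes had similar or higher later-only shares, 5.31% for mid-maturation only, 5.71% for seedlings only and 10.3% for all embryo stages only. Regions of all 5 stages had 3.39%. Of the 107, 45 had an island in seedlings only, 39 at late maturation only and 13 at both. At mid-maturation, the stage that follows directly, an island was found with late maturation for 6, with late maturation and seedlings for 2, with seedlings for 1 and alone for 1. Of the 63, 49 had an island at the cotyledon stage only, 7 at early maturation only and 7 at both.

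The later islands were weak or moderate. The highest fold belonged to a cotyledon-only region of 739 bp on chromosome 6 from 6981675, with a score of 18.4 and an island of fold 4.14 at mid-maturation (985 ChIP and 351 control reads) and 2.53 at late maturation. A cotyledon-only region of 638 bp on chromosome 19 from 46742064 had an island of fold 3.62 at mid-maturation alone, from 103 ChIP and 42 control reads. This region and the one on chromosome 6 lay 114 and 127 bp from regions with H3K4me3 at all 5 stages. A cotyledon-only region on chromosome 17 from 4873833 had one in seedlings, with a fold of 3.21. Among early-maturation-only regions the highest were folds of 3.47 at late maturation on chromosome 3 from 4985425, 3.27 in seedlings on chromosome 6 from 37539396 and 3.00 at late maturation on chromosome 10 from 41601087. For both stages they were 3.35 at late maturation on chromosome 13 from 22234827, 3.04 at mid-maturation on chromosome 13 from 3265736 and 2.69 at late maturation on chromosome 5 from 26565. The 3 cotyledon-only and the 3 early-maturation-only regions among these had H3K4me3 scores between 4.52 and 18.4, in the lowest 25% of their lists.

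The islands under early-maturation-only regions had other folds than those under the union as a whole, a difference that was not tested. Among the 92 with an island at all 5 stages, the median folds over the stages were 4.94, 5.02, 2.65, 2.08 and 3.43. The 91 cotyledon-only regions with islands at all stages had medians of 4.40, 3.98, 4.41, 3.20 and 3.09, and the 8872 such regions of the whole union 4.43, 3.88, 4.04, 2.91 and 2.93. The fold was lower at mid-maturation than at early maturation in 66 of the 92 early-maturation-only regions (71.7%), in 33 of the 91 cotyledon-only regions (36.3%) and in 39.1% of the 8872. Folds are the authors' values, which scale the ratio of ChIP to control reads by 1 constant per list.

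These regions included a set over narrow islands with very high folds. The set was chosen after its values were seen, by an early maturation fold of 8 or more. It held 24 of the 650 early-maturation-only regions (3.69%), 4 of both stages and 1 of the cotyledon stage only, and 97 of all 56109 union regions (0.173%). Of the 114 islands of that fold in the early maturation list, 22 (19.3%) lay under an early-maturation-only region and 65 (57.0%) under any union region. The 24 regions were 203 to 650 bp wide with H3K4me3 scores between 2.23 and 12.9, and they were spread over 12 chromosomes. Their 22 islands had a median length of 800 bp at early maturation, where the median island of the list had 4600 bp. The 114 islands of that fold in the list had a median length of 600 bp, so shortness did not set the 22 apart from them. The median folds of these islands over the stages were 6.99, 10.1, 1.90, 1.97 and 8.36. At mid- and late maturation the values were nearly equal from island to island, from 1.54 to 2.26 and from 1.72 to 2.14, while they ran from 8.08 to 13.8 at early maturation and from 2.29 to 17.0 in seedlings.

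Read density in these 22 islands was above the list median in the control as well, by little in seedlings. The control held medians of 119, 123, 194, 519 and 80.8 reads per kb. The list medians were 75.1, 61.9, 45.8, 55.8 and 78.0. The ChIP held 575, 413, 248, 531 and 423 reads per kb in the same order, against list medians of 153, 61.4, 95.7, 70.6 and 107. The low folds of mid- and late maturation thus went with high control density, and the part of that density in the calls of either mark was not tested. Without the 24 regions, the 68 other early-maturation-only regions with islands at all 5 stages lay over 64 islands. The median folds of these islands were 4.43, 4.13, 3.44, 2.57 and 3.07. At mid- and late maturation they were nearer to the union than those of the 92 regions above, but still lower. These medians count each island once, while those of the 92 and of the union count each region. Regions over islands of fold 8 or more were left in the union, so the measures are unlike.

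Single regions of the set show the pattern. On chromosome 8 from 39949309 to 39949609, an early-maturation-only region with a score of 11.5 had folds of 10.1, 13.8, 2.08, 2.07 and 17.0 over the stages. On chromosome 18 from 3567278 to 3567597, with a score of 4.24, they were 8.88, 13.8, 1.97, 1.93 and 14.9. On chromosome 15, 3 early-maturation-only regions between 46624325 and 46626745 shared 1 island with folds of 7.30, 11.8, 2.08, 2.03 and 10.6, and had scores of 12.4, 12.5 and 11.5. The highest early maturation fold of the early-only regions belonged to a region of both stages on chromosome 2 from 40037977 to 40038315, with H3K4me3 scores of 10.4 and 17.1 and folds of 14.5, 20.4, 2.33, 1.96 and 18.2. The cotyledon-only region of the set, on chromosome 2 from 49882862, differed, with folds of 8.25, 8.26, 6.76, 4.46 and 3.99.

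**Figure D5:**
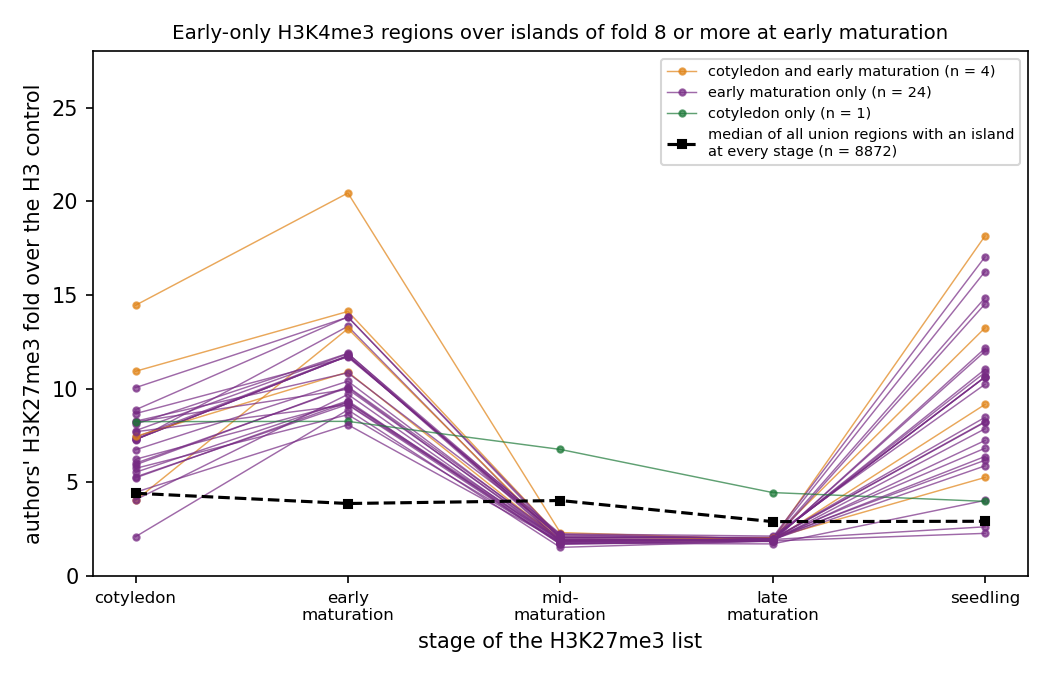
Authors' H3K27me3 fold over the H3 control (vertical axis) at the 5 stages (horizontal axis) for the 29 early-only regions over an island of fold 8 or more at early maturation, 1 line per region, with the median of all union regions that have an island at every stage as the dashed line. The early-maturation-only lines fall to about 2 at mid- and late maturation and lie higher at early maturation and in most cases in seedlings; early maturation is high by the choice of the set.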

How the data were processed

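Per the submitters' processing notes, reads were handled with Bowtie 0.12.7, SAMtools 0.1.19, MACS2 and SICER 1.1; the genome build is not given in the sources used here. The last listed base of chromosome 18 is 62288266, past the last gene end of the RefSeq table of Glycine_max_v4.0 (58285519), so that table, the reference at hand, was not used, no gene was assigned and no sequence is shown. The authors deposited a score per H3K4me3 peak, with no stated meaning. Their H3K27me3 islands (window 200 bp and gap 600 bp per the file names) have deposited read counts for ChIP and H3 control and a fold (their ratio times 1 constant per list). The deposited false discovery rate (FDR, an adjusted p-value) was also used. Mid-maturation lists were matched by their stage code.

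The lowest peak width was 129, 177, 197, 197 and 124 bp from the cotyledon stage to seedlings, so caller settings may have differed. Islands were kept at an FDR of at most 0.05. Overlaps, gaps and Wilson intervals were computed, in place of the planned bedtools, with Python 3.11.15, pandas 2.3.3 and scipy 1.17.1, checked on simulated intervals. Positions count from 1. Depth per library is unknown. Regions were named by a rule: per class the 5 highest scores, the 3 widest, and the 3 highest later H3K27me3 folds without an earlier island; the high-fold set and chains of neighbours were chosen after their values were seen. The members and lists were chosen with earlier results of these data known. Alternatives are given in the closing section.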

Additional observations from a re-analysis of the deposited data

How the results depend on the processing

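No paired analysis was possible because the replicates of a stage share 1 list, and leaving out replicates was not run for the same reason. The cause of the changes was not tested. The number of early-only regions depended on the settings (658 cotyledon only, 650 early maturation only and 598 both in the main setting). With a reciprocal overlap of 50% there were 2693, 2347 and 989, and with a width of 400 bp or more 205, 189 and 380. Cotyledon-only regions numbered 315 when peaks up to 500 bp apart were merged and 1260 at any width. With peaks above the score median of each list, 543 cotyledon-only regions, 159 early-maturation-only regions and 319 of both were found. This cut also drops lower-scored peaks of the later lists, and few of these regions belong to the main set. In the main set 0 cotyledon-only, 1 early-maturation-only and, by cotyledon score, 6 regions of both lay above the list median. Of the 30 named regions, 3 remained members. Without the mid-maturation list, which asks for absence from fewer lists, 1376 early-maturation-only regions and 1595 of both qualified, and without the seedling list 988 of both. Equal numbers of peaks per list kept 27 named regions and merging over 500 bp kept 25. Those lost by merging had all been named for a later H3K27me3 island. They lay on chromosome 6 from 6981675 and 37539396, chromosome 19 from 46742064, chromosome 10 from 41601087 and chromosome 13 from 22234827. With islands of fold 3 or more the H3K27me3 share fell to 14.3, 12.0, 9.55, 6.19 and 9.18% over the 5 stages. The other settings run on these shares, among them the island over the midpoint of a region (chosen after seeing the data), left them within their intervals. A later peak lay within 500 bp of 25.8% of the regions, within 2000 bp of 58.2%, and within 1000 bp of 19.8% when only peaks above the list median counted, against 41.6% at 1000 bp. In alternatives added after seeing the data, the 24 early-maturation-only regions over islands of fold 8 or more became 41 at a fold of 6, 14 at a fold of 10 and 2 at a width of 400 bp or more.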

Other observations

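The width limit left out 765 regions of the same presence pattern that were under 200 bp. Of these, 602 belonged to the cotyledon stage only, 151 to early maturation only and 12 to both, with median scores of 4.97, 5.21 and 5.48. The cotyledon list held peaks down to 129 bp and the mid- and late maturation lists none under 197 bp.

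On scaffolds not placed on a chromosome there were 17 early-only regions, 10 of early maturation only and 7 of both stages, and none of the cotyledon stage only. The island lists hold no scaffold, so these regions count as without an island above. Islands with an FDR above 0.05 overlapped 9 early-only regions at late maturation and 3 in seedlings.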
